A study of Homo sapiens and Homo sapiens
Mus musculus and Mus musculus with 9 samples.

Results

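The cytosolic heat shock response genes are the transcription factor gene HSF1 and the genes of chaperones and co-chaperones of the cytosol, HSPA1A, HSPA1B, HSPA8, HSP90AA1, HSP90AB1, HSPB1, DNAJB1, HSPH1 and BAG3. They were chosen by symbol, and all 10 are among the 41713 genes of the table. The study asked how osteoblasts change prostate cancer cells. RNA-Seq was performed on 3 libraries of C4-2B cells grown alone and 3 libraries of a mixed co-culture. The co-culture was seeded with 1 part C4-2B cells to 30 parts MC3T3-E1 cells. Another 3 libraries, of MC3T3-E1 cells alone, are not analysed here. C4-2B is a human prostate cancer line derived from bone metastases of LNCaP xenografts, and MC3T3-E1 is a clonal line of mouse preosteoblasts. The genotype of each line is wild type per the labels, the study marked co-cultured C4-2B cells with GFP, and no drug was given to any group used here. The labels give alpha-MEM with fetal bovine serum for all samples, whereas the study's methods name an RPMI medium for routine culture of C4-2B cells. Each group rests on 1 cell line or 1 pair of lines, and the co-culture RNA is a mixture of human and mouse RNA.

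Human expression was separated from mouse in 3 ways. Xenome sorts reads by species before alignment, XenofilteR drops reads that align better to the mouse genome, and Kallisto assigns reads to the joined human and mouse transcriptomes. For each gene, the values used here are 1 mean count per pipeline. A mean count is the authors' mean over the 6 libraries of both groups of the read count divided by the library's size factor, which scales for depth. A mean over both groups shows neither the spread between replicates nor a difference between the groups, so the values are given without an error or a test, and the co-culture is not compared here with C4-2B cells alone.

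In the cytosol, HSP70 and HSP90 chaperones bind and fold other proteins. HSF1 is the transcription factor of the response: in unstressed cells it is held inactive, partly by these chaperones, and when unfolded proteins engage them it forms trimers and binds heat shock elements in the promoters of the chaperone genes. HSPA8 and HSP90AB1 are made by cells at all times, whereas HSPA1A and HSPA1B are the classical inducible genes. HSP90 is best known in prostate cancer as the chaperone of the androgen receptor, which it keeps able to bind hormone.

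The table held the RNA of the labelled cancer line. Of the 6 prostate markers, 5 had a mean count, between 4603 for TMPRSS2 and 51038 for KLK3 by Xenome, and KLK2 is not analysed here. Of the 8 osteoblast markers, 5 had mean counts below 5 in each pipeline, including SP7 at 0.984 and BGLAP at 3.78 by Xenome. COL1A1 stood at 3384, 4557 and 2471 and COL1A2 at 45.0, 264 and 222 by Xenome, XenofilteR and Kallisto, and RUNX2 at 411, 400 and 385. These 3 genes were thus counted as human at levels that, for the collagens, differed between pipelines, and their part in the chaperone values was not tested.

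The pair HSPA1A and HSPA1B sets how far the data can resolve the inducible HSP70, so their sequences are given first. HSPA1A (ENSG00000204389) lies at chr6:31815543-31817946 and HSPA1B (ENSG00000204388) at chr6:31827738-31830254, both on the plus strand of GRCh38 and each with 1 exon in its main transcript, and their starts are 12195 bases apart. Their coding sequences, each of 1926 bases with the stop codon, differed at 4 positions counted from the A of the start codon, G1710T, G1860C, C1905T and A1920G, with the HSPA1A base first. None of the 4 codons changed its residue, so the 2 genes encode the same protein. The 90 coding bases with the most differences, 1831 to 1920, are shown with the 3 differing bases in capitals, HSPA1A at chr6:31817587-31817676 and HSPA1B at chr6:31829781-31829870.
HSPA1A: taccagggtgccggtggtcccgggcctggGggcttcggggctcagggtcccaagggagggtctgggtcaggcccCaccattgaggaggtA
HSPA1B: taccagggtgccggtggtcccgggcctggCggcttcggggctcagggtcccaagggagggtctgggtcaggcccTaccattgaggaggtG

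The reads were 50 bases long, and the first 1709 coding bases of the 2 genes were identical. In GENCODE v44, 1760 of the 1877 coding 50-base sequences of HSPA1A (93.8%) were also in HSPA1B. In the 5′ and 3′ UTRs no 50-base sequence was shared. Over the whole transcripts, 585 of 2351 positions of HSPA1A and 702 of 2468 positions of HSPA1B started a 50-base sequence that the other gene lacked. A single read from most of the coding sequence therefore cannot be placed on 1 of the 2 genes, and each value of either gene below is uncertain for that reason. How reads that fit several genes were counted is not given in the sources used here.

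**Figure D1:**
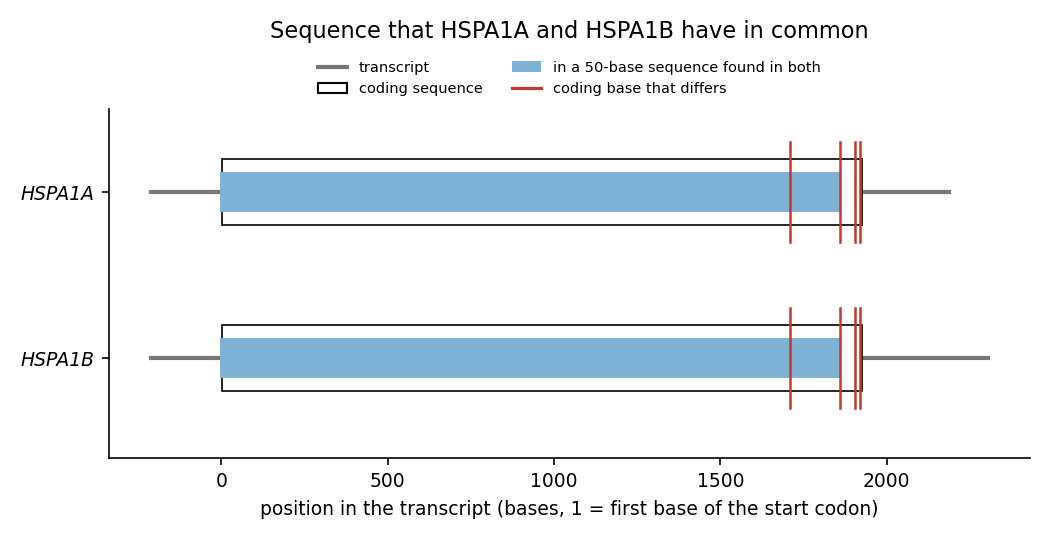
Transcripts of HSPA1A and HSPA1B drawn to scale, with position in bases from the start codon on the x axis. Grey lines are the transcripts, white boxes the coding sequences, blue the bases that lie in a 50-base sequence found in both genes and red lines the 4 coding bases that differ, all of which lie after base 1709.

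The promoters of the pair were alike as well. The 250 bases before each start were 93.6% identical over 251 aligned columns (RefSeq, GRCh38.p14). They are shown because the counts of the 2 genes differed so widely, with the heat shock element of 2 units, GAANNTTC or TTCNNGAA, in capitals. The HSPA1A window is chr6:31815293-31815542 and the HSPA1B window chr6:31827488-31827737, plus strand.
HSPA1A: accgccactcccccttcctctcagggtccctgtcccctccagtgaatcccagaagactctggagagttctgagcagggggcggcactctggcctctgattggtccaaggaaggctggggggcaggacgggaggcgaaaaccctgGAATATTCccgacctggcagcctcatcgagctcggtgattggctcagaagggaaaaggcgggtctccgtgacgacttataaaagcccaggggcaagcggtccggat
HSPA1B: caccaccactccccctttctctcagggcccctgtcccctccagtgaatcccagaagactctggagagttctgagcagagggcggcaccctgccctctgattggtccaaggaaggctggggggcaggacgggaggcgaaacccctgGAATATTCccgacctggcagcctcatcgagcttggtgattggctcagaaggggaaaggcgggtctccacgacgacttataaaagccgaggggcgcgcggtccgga

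Each of the 2 windows held 1 such element and 1 TATA box, searched as TATAAA, and none held the 3-unit element GAANNTTCNNGAA. RefSeq windows were searched for 9 of the 10 genes, 14 windows in all, since HSP90AA1, HSP90AB1 and DNAJB1 have several starts. HSF1 was left out of this search, so the counts that follow do not cover it. A 2-unit element was present in at least 1 window of 7 genes, HSPA1A, HSPA1B, HSPA8, HSP90AA1, HSP90AB1, HSPB1 and DNAJB1, that is in 7 of the 14 windows, and among all 35116 windows of the same length 11.6% held one. The 3-unit element was present in 3 of the 14 windows, 1 each of HSPA8, HSP90AA1 and HSP90AB1, against 0.441% of all windows, and the nearest one began 55, 88 and 112 bases before the start. All motifs were searched on both strands of the 250 bases before the start in every window, the 2-unit forms lie within the 3-unit one, and a match is a description of the letters only.

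The Xenome mean counts of the 10 genes spanned 14.4 to 134334. The genes with the highest means were HSP90AA1, HSPA8 and HSP90AB1, and together they made up 86.4% of the sum of the 10 Xenome means. That sum was 1.03% of all mean counts by Xenome, 1.02% by XenofilteR and 1.00% by Kallisto. Counts grow with transcript length, so levels are compared between genes only per kilobase of joined exons (GENCODE v44), with the share of protein-coding genes that lay lower.

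HSP90AB1, the constitutive cytosolic HSP90, lies at chr6:44246166-44253888 on the plus strand. Its mean count was 109691 by Xenome, 112996 by XenofilteR and 118153 by Kallisto. Per kilobase it had the highest Xenome level of the 10 genes, 36809, above 99.9% of protein-coding genes. HSP90AA1, the HSP90 gene that responds more to stress, lies at chr14:102080738-102139699 on the minus strand. Its mean counts were 134334, 134246 and 142007 in the same order, and its Xenome level was 26355 per kilobase. HSP90AB1 was thus 1.40 times HSP90AA1 per exon kilobase by Xenome, 1.44 times by XenofilteR and 1.42 times by Kallisto. Per kilobase of coding sequence the order of the 2 genes turned, at 50502 for HSP90AB1 and 52433 for HSP90AA1 by Xenome, so their levels are best read as close.

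HSPA8, the constitutive HSP70 that folds new proteins and uncoats clathrin vesicles, lies at chr11:123057489-123063230 on the minus strand. Its mean counts were 131756, 132246 and 135790 by Xenome, XenofilteR and Kallisto. Per kilobase it stood at 27172 by Xenome, above 99.9% of protein-coding genes, and under coding length or the longest transcript it ranked first of the 10. This constitutive gene was far above its inducible relatives: its Xenome level per kilobase was 24.7 times that of HSPA1B, and by Kallisto the ratio was 6.19. Per kilobase of coding sequence or of the longest transcript the Xenome ratio was 47.2 or 51.9.

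HSPB1 encodes the small heat shock protein HSP27, a holdase that binds unfolded proteins and protects actin, and lies at chr7:76302673-76304295 on the plus strand. Its mean counts were 19502, 19504 and 20134, and its Xenome level of 12016 per kilobase ranked 4 of 10. HSPH1 encodes HSP110, a nucleotide exchange factor of HSP70, and lies at chr13:31134973-31162388 on the minus strand. Its mean counts were 24384, 24408 and 24407, and its Xenome level was 2906 per kilobase, above 97.4% of protein-coding genes. With the larger count but the longer transcript, HSPH1 was lower per kilobase than HSPB1, which was 4.13 times higher by Xenome.

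The remaining regulators and co-chaperones had lower counts. BAG3, which links HSP70 to HSPB8 and to selective autophagy, lies at chr10:119651370-119677819 on the plus strand and had mean counts of 3419, 3399 and 3400, or 1249 per kilobase by Xenome. HSF1 lies at chr8:144291591-144314720 on the plus strand and had mean counts of 3706, 3679 and 3712, or 699 per kilobase. DNAJB1, the HSP40 that hands clients to HSP70 and starts its ATP cycle, lies at chr19:14514769-14529770 on the minus strand and had mean counts of 5137, 5132 and 5141, or 627 per kilobase. The factor gene and the HSP40 gene were the lowest of the 10 per exon kilobase after HSPA1A, yet still above 84.2% and 82.4% of protein-coding genes. The rank of DNAJB1 rests on the length used, since 8188 exon bases are annotated for it against 1020 coding bases, and per coding kilobase it ranked 6 of 10.

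HSPA1B had mean counts of 2768 by Xenome and 2838 by XenofilteR but 11395 by Kallisto. Per kilobase this was 1100, 1128 and 4527, above 90.5%, 90.6% and 98.5% of protein-coding genes. HSPA1A had mean counts of 14.4, 11.6 and 12.9, or 5.98, 4.84 and 5.39 per kilobase, above 30.3%, 28.9% and 29.8%. HSPA1A was thus low in every pipeline, and its share of the summed mean counts of the pair was 0.516%, 0.408% and 0.114%. Whether reads of HSPA1A were counted to HSPA1B was not tested.

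**Figure D2:**
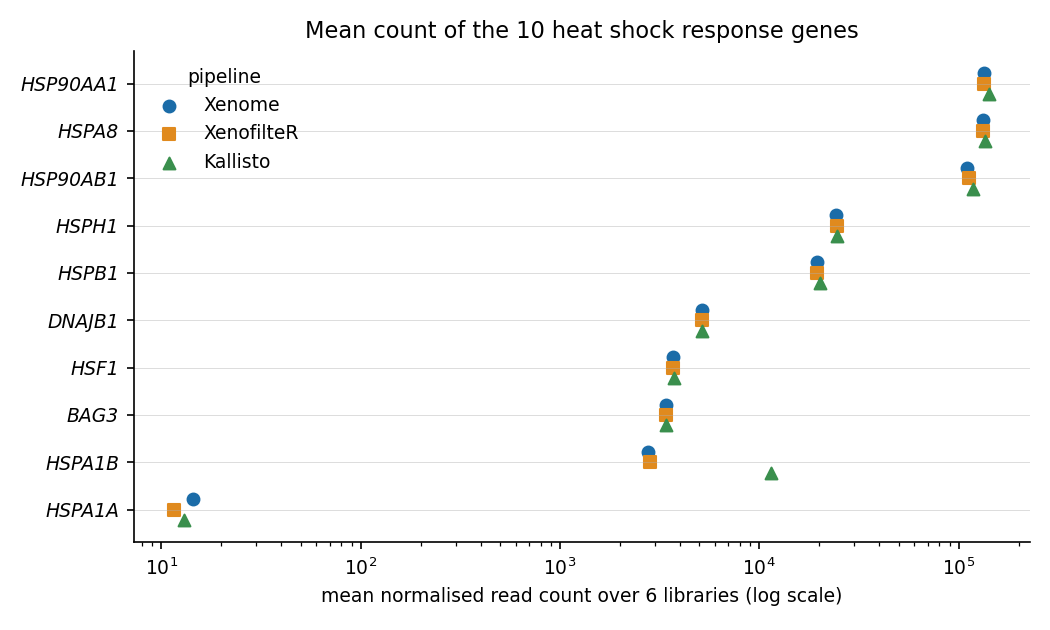
Mean normalised read count over the 6 libraries (x axis, log scale) for each of the 10 genes, with circles for Xenome, squares for XenofilteR and triangles for Kallisto. The 3 symbols of a gene nearly coincide except for HSPA1B, at 2768, 2838 and 11395, and HSPA1A lies far to the left at 11.6 to 14.4.

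HSPA1A was low enough for its reads to be read back from the mean. A mean over 6 libraries is a sum in which each read counts as 1 over 6 times its library's size factor. With these step sizes each of the 17404 genes with a Xenome mean below 5 had exactly 1 solution in whole reads. The step sizes were themselves adjusted to solve as many low means as possible, so that count is no independent check. HSPA1A, whose means lie above 5, also had exactly 1 solution by Xenome and by XenofilteR. The libraries were named A to F by depth and were not assigned to the study's groups. Their Xenome size factors were 5.93, 5.31, 4.86, 0.427, 0.145 and 0.109, so 3 libraries were deep in human reads and 3 were shallow. Scaled by the sum of all means, these correspond to about 251, 225, 206, 18.1, 6.14 and 4.61 M human reads.

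By Xenome, HSPA1A had 119, 60, 132, 2, 2 and 1 reads in libraries A to F, 316 in all. Divided by the size factors these were 20.1, 11.3, 27.2, 4.69, 13.8 and 9.18. Reads of HSPA1A were thus found in each of the 6 libraries, and the normalised values of the deep and the shallow libraries overlapped. By XenofilteR the same libraries had 82, 66, 77, 2, 2 and 1 reads, 230 in all. The loss of reads from Xenome to XenofilteR lay in libraries A and C, whereas library B had 6 more and the shallow libraries did not differ. The 5 reads of the shallow libraries made up 32.1% of the Xenome mean and 39.8% of the XenofilteR mean, so a level in any 1 of these libraries rests on 1 or 2 reads. The 3 reads taken as the lower limit of counting would be 27.6 normalised counts in library F and 0.506 in library A, and this limit covers counting error only.

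**Figure D3:**
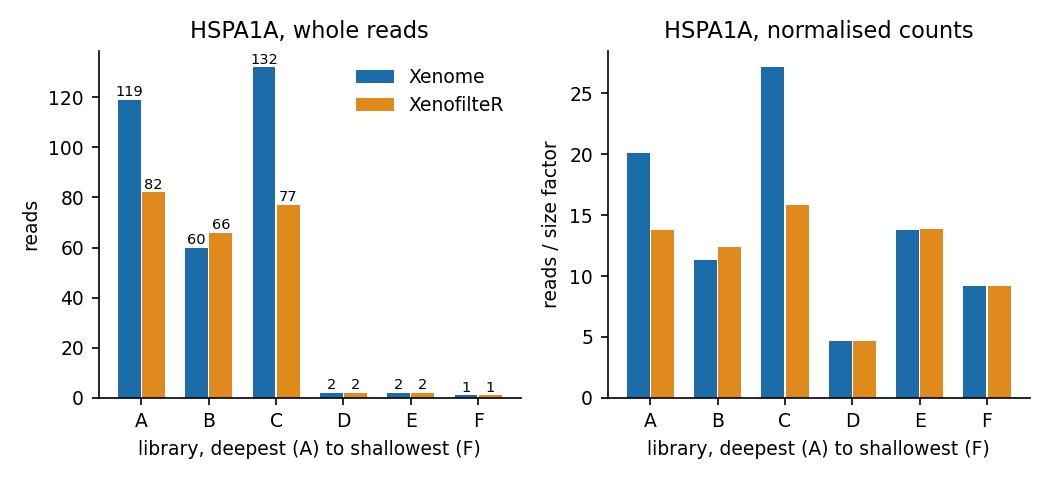
HSPA1A in each of the 6 libraries, ordered from the deepest (A) to the shallowest (F), with whole reads on the left and reads divided by the size factor on the right, blue for Xenome and orange for XenofilteR. Libraries A and C had more reads by Xenome (119 and 132) than by XenofilteR (82 and 77), and D to F had 1 or 2 reads in both.

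The 3 pipelines were then compared gene by gene. The ratio of 2 mean counts was divided by that of the median protein-coding gene among those whose mean count was 50 or more by both pipelines, and a ratio of at least 2-fold either way was counted. The median gene stood at a log2 ratio of 0.03 for Kallisto over Xenome, and 703 of 11580 protein-coding genes (6.07%) were at least 2-fold apart, 661 of them (5.71%) higher by Kallisto. Of the 10 heat shock response genes, 9 had a mean count of 50 or more by both, and 1 of the 9, HSPA1B, was at least 2-fold apart.

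As deposited, HSPA1B was 4.12-fold higher by Kallisto than by Xenome. Its centred log2 ratio was 2.01, a fold of 4.04, and lay above 97.6% of protein-coding genes. The other 8 were within 0.1 of the median gene on the log2 scale, as were between 61.4% and 64.2% of all protein-coding genes. Their ratios as deposited ran from 0.995 for BAG3 to 1.08 for HSP90AB1, with HSP90AA1 at 1.06, HSPB1 and HSPA8 at 1.03 and HSF1, DNAJB1 and HSPH1 at 1.00. HSPA1A, which was below the minimum mean count, had a ratio of 0.90. For HSPA1B this was a difference of 8626 mean counts, whereas for HSPA1A it was smaller than the 1.53 that 1 read of library F adds to a Xenome mean, so no direction is read from it.

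Between the 2 pipelines that count aligned reads, the 9 genes with mean counts of 50 or more were closer still. HSPA1A, below that minimum, was further apart. For XenofilteR over Xenome, 3 of 11647 protein-coding genes (0.0258%) were at least 2-fold apart and 1 (0.00859%) was higher by XenofilteR. None of the 9 heat shock response genes was, and all 9 lay within 0.1 of the median gene on the log2 scale. The highest ratios were 1.03 for HSP90AB1 and HSPA1B and the lowest 0.99 for HSF1, while HSPA1A stood at 0.81.

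**Figure D4:**
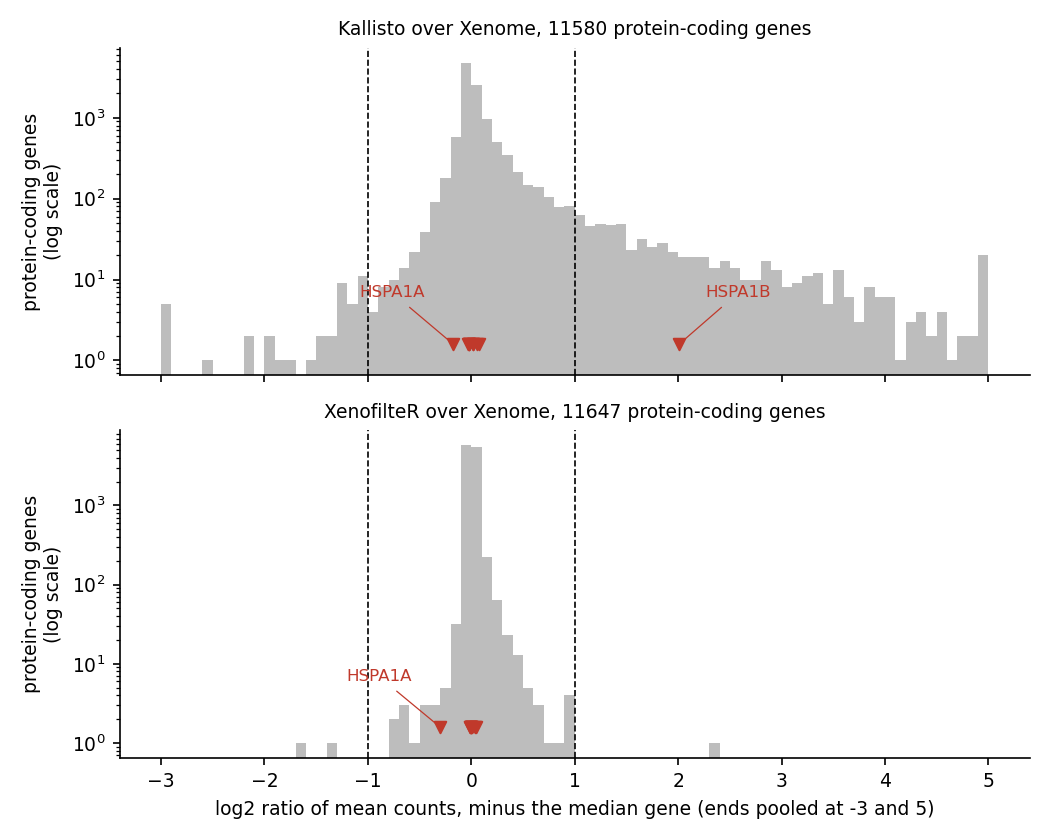
Number of protein-coding genes (y axis, log scale) by log2 ratio of mean counts after subtraction of the median gene (x axis), for Kallisto over Xenome above and XenofilteR over Xenome below. Red triangles are the 10 genes and dashed lines mark 2-fold, and HSPA1B at 2.01 in the upper panel is the single triangle beyond a dashed line.

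The genes differed in how much of their sequence is found elsewhere. Of the distinct 31-base sequences of a gene's transcripts, 76.0% of HSPA1A and 74.6% of HSPA1B were in transcripts of other human genes, for HSPA1A all in HSPA1B. The values were 35.7% for HSP90AB1, 31.02% for HSPA8 and 29.9% for HSP90AA1, then 11.1% for DNAJB1, 9.15% for HSPB1, 3.12% for HSF1, 0.293% for HSPH1 and 0% for BAG3. The pair thus stood apart from the next 3 genes, and the part of shared sequence in the ratios between pipelines was not tested. For HSP90AA1 and HSP90AB1 the gene that shared the most was a pseudogene, HSP90AA2P with 17.3% and HSP90AB3P with 27.7% of the 31-base sequences. For DNAJB1 it was TECR with 5.49%.

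Processed pseudogenes are copies of an mRNA that were inserted into the genome, and reads from the parent mRNA can align to them. The 3 with the highest Xenome means were HSP90AA2P (chr11:27888838-27891033) at 3393, HSP90AB3P (chr4:87891843-87894015) at 1868 and HSP90AB2P (chr4:13333414-13338657) at 329. By XenofilteR they stood at 3245, 2008 and 306, and none of the 3 had a Kallisto mean. In sum, the 4 pseudogenes of HSP90AA1 had 2.83% of the mean count of their parent by Xenome, the 5 of HSP90AB1 had 2.01% and the 14 of HSPA8 had 0.479%. As deposited, without centring, the Kallisto means of the parents were higher than the Xenome means by 7673 for HSP90AA1, 8462 for HSP90AB1 and 4034 for HSPA8. Each difference was more than the summed Xenome means of the gene's pseudogenes, 3799, 2206 and 631. Over the XenofilteR means the differences were 7761, 5157 and 3544, against pseudogene sums of 3550, 2320 and 567. Whether reads moved between the pseudogenes and their parents was not tested.

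**Figure D5:**
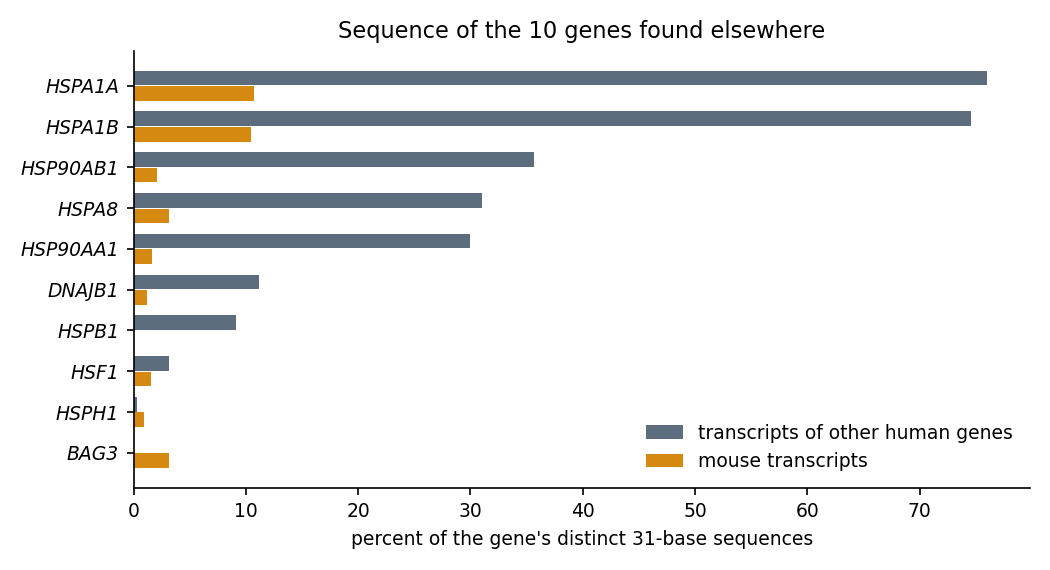
Percent of the distinct 31-base sequences of each gene (x axis) that are found in transcripts of other human genes (grey) or of mouse genes (orange). HSPA1A and HSPA1B have the longest bars in both, 76.0% and 74.6% in other human genes and 10.7% and 10.5% in mouse.

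The co-culture was seeded with 30 mouse cells for each cancer cell, and the ratio at harvest was not measured here. Sequence that is the same in mouse therefore matters for these genes. Of the 31-base sequences, 10.7% of HSPA1A and 10.5% of HSPA1B were found in mouse transcripts (GENCODE vM21), more than in 98.9% and 98.8% of 19874 protein-coding genes, whose median was 0.502%. HSPA8 had 3.19%, BAG3 3.15%, HSP90AB1 2.05%, HSP90AA1 1.66%, HSF1 1.58%, DNAJB1 1.22% and HSPH1 0.927%. HSPB1 had none, and so was the 1 gene of the 10 in which every 31-base sequence differed from mouse. At the read length of 50 bases the shares were 3.50% for HSPA1A, 3.40% for HSPA1B and at most 0.513% for the others.

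The longest run of coding sequence identical to mouse was in the inducible HSP70 genes. It spans 92 bases, coding positions 1474 to 1565 of both HSPA1A and HSPA1B, and is found in mouse Hspa1a and Hspa1b. In HSPA1A it lies at chr6:31817230-31817321 (GRCh38, plus strand) and is printed as an example of sequence from which a single read names neither the species nor the gene.
HSPA1A: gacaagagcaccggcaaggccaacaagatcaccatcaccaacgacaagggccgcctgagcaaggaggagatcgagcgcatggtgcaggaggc

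The longest runs were 75 bases in HSPA8, 62 in DNAJB1, 59 in HSF1, 53 in HSP90AA1 and BAG3, 51 in HSPH1 and 41 in HSP90AB1. In HSPA8 the run matched a mouse pseudogene, Gm9436. These lengths are of coding sequence and of the same strand, and mouse reads counted as human were not measured here.

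Another 29 genes of the cytosolic chaperone network were listed beside the 10. They include other heat shock factors, further HSP70 and HSP40 genes and HSP90 co-chaperones. Their Xenome means ran from 2.03 for HSPA6 to 29184 for PTGES3, the p23 co-chaperone of HSP90, and 3 of the 29, HSPA2, HSPA6 and HSPB8, were below 50. Of the 26 with means of 50 or more by both pipelines, 17 lay within log2 0.1 of the median gene for Kallisto over Xenome. That share was near the one over all protein-coding genes, of which between 61.4% and 64.2% lay as close. The median centred log2 ratio of the 26 was 0.02. For XenofilteR over Xenome none of the 26 was at least 2-fold apart, and their ratios as deposited ran from 0.96 to 1.09.

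STUB1, which encodes the ubiquitin ligase CHIP that marks HSP70 and HSP90 clients for degradation, lay just under 2-fold after centring, with 3070 by Xenome and 6249 by Kallisto and a centred log2 ratio of 0.997. Below the minimum mean count were 2 further HSP70 genes with higher Kallisto means. HSPA6, an inducible HSP70 that mice lack, had means of 2.03 by Xenome and 17.0 by Kallisto. Its Xenome reads were 41, 15, 12, 0, 0 and 0 in libraries A to F, and those by XenofilteR were the same. HSPA2, the HSP70 known for its role in spermatogenesis, had means of 8.60 by Xenome, 4.85 by XenofilteR and 38.8 by Kallisto. Its reads were 58, 58, 27, 1, 2 and 1 by Xenome and 59, 61, 26, 1, 0 and 0 by XenofilteR. Both sets sum to 147 reads, yet the Xenome mean was 1.77 times the XenofilteR mean, and the 3 Xenome reads of libraries E and F carried 3.83 of it.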

How the data were processed

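RNA was sequenced as 50-base paired reads from 3 libraries of C4-2B cells alone and 3 of the mixed co-culture. The authors kept human reads with Xenome and then aligned them with HISAT2 to GRCh38, or aligned reads with HISAT2 to GRCh38 and GRCm38 and then removed mouse reads with XenofilteR. Both were counted with FeatureCounts. The authors also quantified genes with Kallisto on joined human and mouse Gencode transcriptomes. Versions are not given in the sources used here. Within each pipeline the authors ran DESeq2 on co-culture against C4-2B alone. The deposited table holds, per pipeline, the mean of normalised counts over both groups, which was used, and the log2 fold change, its standard error, Wald statistic, p-value and adjusted p-value of the authors' comparison, 15 columns that were not used. No column holds a single library, and with the authors' comparison left unused no test between groups was made. After 21 repeated rows were dropped, 41713 genes remained.

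Mean counts were divided by exon length (GENCODE v44). Coordinates are those of the table on GRCh38, and 7 of the 10 genes have the same ones in GENCODE v44. Ratios between pipelines were centred on protein-coding genes with a mean of at least 50. Shared sequence was counted on both strands as distinct 31- and 50-base sequences. Whole reads were solved from low Xenome and XenofilteR means, a step chosen after the table was seen. On simulated data it recovered 200 of 200 genes with means of 1 to 5 and 40 of 40 with means of 8 to 16. Python 3.11.15, numpy 2.4.6 and pandas were used.

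The genes and lists were chosen with earlier results of these data known. The text names the 10 genes, the network genes past 2-fold or without a value above the minimum (1 is not reported here), and the 3 pseudogenes with the highest means. The pattern of pseudogene symbols, and HSPA2, HSPA6 and STUB1 as examples, were chosen after their values were seen.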

Additional observations from a re-analysis of the deposited data

How the results depend on the processing

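Whether a gene of the 10 was at least 2-fold apart did not change under no centring, centring on all genes, or centring on genes with a mean of at least 10 or 500, in 40 of 40 values for each ratio. The medians used for centring were at most 0.032 on the log2 scale, and no gene of the 10 lay that near to 2-fold. These alternatives could therefore not change a call. The count of such genes remained 1 for Kallisto over Xenome and 0 for XenofilteR over Xenome at 1.5-fold, without centring and without the minimum mean. Among network genes, STUB1 passed 2-fold without centring (2.04).

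In the order per kilobase, 12 of 20 ranks moved with another length and 3 of 10 with Kallisto means. HSPB1 ranked 4 and HSPA1A 10 under each of the 3 alternatives, while HSPA8 ranked first by coding length or longest transcript. With Kallisto means HSPA1B ranked 5 in place of 7. The share of sequence found in mouse was lower at 50 bases for 9 of 10 genes and 0 at both lengths for HSPB1.

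No paired analysis was possible because the table holds means over both groups and the solved libraries carry no replicate number. Leaving out each solved library in turn, an alternative chosen after seeing the data, the HSPA1A mean ran from 11.8 (without library C) to 16.3 (without library D) by Xenome and from 10.8 to 13.02 by XenofilteR. Depth limits HSPA1A in 3 libraries with 1 or 2 reads each.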
